A study of Homo sapiens with 6 samples.

Results

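The EGR family and its NAB corepressors were followed in K562, an established human line from chronic myeloid leukaemia that carries the BCR-ABL1 fusion, by their probe sets on a 1-colour Affymetrix expression array. A probe set was a member when the platform annotation gave it the symbol EGR1, EGR2, EGR3, EGR4, NAB1 or NAB2 alone. This found 13 of 54675 probe sets, which stood for 5 of the 6 genes: 3 probe sets for EGR1, 1 for EGR3, 3 for EGR4, 4 for NAB1 and 2 for NAB2. EGR2 had 0 probe sets under this rule and was not analysed here. There were 3 arrays of K562 cells exposed to 0.15 mM calactin, a plant cardenolide that inhibits the sodium pump, for 12 h, and 3 arrays of K562 cells left without the drug and labelled with the same 12 h. The labels name the arrays of a group biological replicates, mention no vehicle for the untreated cells and give the dose in mM, a unit that rests on the labels alone. The family was chosen by the signal differences between these same 6 arrays, in which EGR1 stood out, so its differences between the groups are given as a description and support nothing beyond themselves.

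EGR proteins are zinc finger transcription factors that bind GC-rich sites. Growth factors switch EGR1 on within minutes through the RAS and ERK kinases, which act on SRF and its ternary complex partners of the ELK family at CArG boxes in the promoter, and CREB can act beside them. NAB1 and NAB2 have no DNA-binding domain of their own, attach to EGR1, EGR2 and EGR3 and turn activation into repression, NAB2 in part through the chromatin remodelling complex NuRD. NAB2 is itself induced by EGR factors, which makes a negative feedback loop. EGR1 is used in leukaemia cells as an early readout of kinase signalling and is linked to myeloid and megakaryocytic differentiation.

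The promoters are shown because members that share a family name differed in how they moved, and the windows show which of these binding sequences each holds. The bases come from RefSeq windows of GRCh38.p14, and 4 of the 5 measured genes had a window, with EGR3 the exception. Each window ran from 250 bases before the start site into the first transcribed bases, with that of EGR1 ending at chr5:138465528. The whole windows were searched on both strands for the CArG box, for the EGR site GCGNGGGCG and for TGACG, the core of a CREB site. In each line the 250 bases before the start site are written 5′ to 3′ along the gene, with CArG boxes and EGR sites in capitals.
EGR1 (chr5:138465229-138465478, plus strand): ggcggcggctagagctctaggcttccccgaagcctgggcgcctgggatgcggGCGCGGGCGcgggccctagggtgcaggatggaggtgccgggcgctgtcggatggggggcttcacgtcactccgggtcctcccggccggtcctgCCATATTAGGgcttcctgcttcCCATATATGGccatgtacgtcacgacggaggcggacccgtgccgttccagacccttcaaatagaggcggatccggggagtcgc
EGR4 (chr2:73293549-73293798, minus strand): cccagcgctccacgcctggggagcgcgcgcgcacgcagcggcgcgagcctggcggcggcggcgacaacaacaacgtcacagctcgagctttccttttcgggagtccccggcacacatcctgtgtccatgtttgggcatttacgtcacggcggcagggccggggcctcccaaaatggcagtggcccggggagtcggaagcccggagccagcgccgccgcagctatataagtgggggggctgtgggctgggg
NAB2 (chr12:57088864-57089113, plus strand): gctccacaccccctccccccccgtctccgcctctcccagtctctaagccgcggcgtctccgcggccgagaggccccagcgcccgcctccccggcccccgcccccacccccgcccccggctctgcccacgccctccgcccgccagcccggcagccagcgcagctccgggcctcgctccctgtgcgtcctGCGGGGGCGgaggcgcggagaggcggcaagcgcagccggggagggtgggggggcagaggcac
The EGR1 window held 2 CArG boxes, CCATATTAGG from -105 to -96 and CCATATATGG from -83 to -74, with the start base counted as 0. Of 35116 whole windows, transcribed bases included, 1.29% held a CArG box and 11 windows, or 0.0313%, held at least 2. The same EGR1 window held 1 EGR site from -198 to -190 and 2 TGACG cores. EGR4 had 2 TGACG cores and no match to the other 2 motifs within this window. A TGACG core was seen in 24.6% of all windows, and at least 2 in 6.02%. NAB2 had 1 EGR site, GCGGGGGCG, from -62 to -54 and no match to the others. For NAB1, 3 start sites are listed. The window of the first held 3 EGR sites, that of the second, which overlaps it, 4, and that of the third 0. Each of these windows held 1 TGACG core. In the first window the sites from -42 to -34 and from -36 to -28 overlapped. Its remaining site lay in the transcribed bases 13 to 21 and is shown here with 10 bases on either side.
NAB1 (chr2:190648898-190648926, plus strand): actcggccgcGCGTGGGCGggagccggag
An EGR site was found in 9.43% of all windows, and at least 2 were found in 1.59%. These matches describe sequence and say nothing about which factor was bound.

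The number of arrays limits the precision. Array medians were 31.1 to 32.0 intensity units with calactin and 33.0 to 34.3 without, and the whole comparison leaned downward, with 5600 of 54613 probe sets called lower (10.3%) and 2011 called higher (3.68%). A call is an adjusted p under 0.05 in limma over all probe sets on log2(signal + 16). The poly-A spikes, added to the RNA before labelling, had a geometric mean of 83.4 and 112 in the replicate 3 arrays and of 887 to 1896 in the other 4. Scaling to them within each replicate number moved the median of all genes from -0.06 to 0.32 and called 6998 of 19775 genes higher and 1099 lower. List counts are therefore given on both scales below. The lists were chosen with earlier results of these data known, so their counts and adjusted p values are a description. The 2 differ in model as well as scale. Deposited counts had no replicate block unless it is named, and poly-A counts and calls had it. The block alone, on the deposited scale, called 1402 genes higher and 3992 lower. Poly-A scaling without the pairing called 0 genes in either direction. A control probe set for the middle of 28S ribosomal RNA read 7119 to 13172 with calactin and 529 to 1051 without, and its part in the differences below was not tested. The ratio of the 3′ to the 5′ GAPDH control was 0.938 to 1.0 with calactin and 0.936 to 0.976 without. K562 identity was seen in 11 of 11 measured erythroid marker genes above the median gene signal, with the embryonic globin genes HBE1 and HBZ among the brightest. Of markers of other cells, 1 of 7 T cell genes (CD3D), 0 of 5 B cell genes, 2 of 4 monocyte genes and 3 of 6 fibroblast genes lay above that median. The summed T cell signal was 1802 to 1971 with calactin and 2280 to 2691 without, and most of it was CD3D. The summed monocyte signal was 715 to 858 with calactin and 900 to 955 without. B cell sums were 113 to 145 and 110 to 131, and fibroblast sums were 984 to 1228 and 1055 to 1323. The part of these signals in the results was not tested. In bulk RNA, fewer cells of a kind and less RNA per cell cannot be told apart.

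EGR1 was far lower with calactin on all 3 of its probe sets. The identifiers of all 3 mark shared sequence, so EGR1 could not be read on a probe set of unshared sequence. EGR1 is the founding member of the family and the form most tied to growth signalling. Its brightest probe set, 227404_s_at, read 8428, 2924 and 9684 in untreated replicates 1, 2 and 3 and 216, 333 and 222 in calactin replicates 1, 2 and 3. The lowest untreated array was 8.78 times the highest calactin array. The group means were 7012 ± 3596 and 257 ± 65.8 (SD, n = 3 each), and the fitted log2 difference was -4.53 ± 0.40 (SE), or 23.2-fold lower.

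The other EGR1 probe sets gave the same order of the groups at smaller sizes. Probe set 201694_s_at read 2021, 679 and 1546 in untreated cells and 78.1, 82.8 and 48.1 with calactin, a log2 difference of -3.95 ± 0.36, or 15.5-fold lower. Probe set 201693_s_at read 255, 47.2 and 192 against 20.8, 25.6 and 10.8, at -2.15 ± 0.49. Untreated replicate 2 was the lowest untreated array on each of the 3 probe sets, and no calactin array reached an untreated one. The dimmest EGR1 probe set depended on settings: its fold was 4.43 with a pseudocount of 16, 7.02 with 1, 2.52 with 64, and 6.88 without untreated replicate 2. Its call was kept without that array and lost without any other single array, with log2 differences of -2.28 to -1.73 there.

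The size of the EGR1 difference varied with the replicate number. The labels number the replicates in both groups, and arrays of the same number deviated together. Taken within numbers, the brightest EGR1 probe set differed by -5.18, -3.07 and -5.35 on the log2 scale for numbers 1, 2 and 3. Number 2 thus had the smallest EGR1 difference, and 201694_s_at showed the same, at -4.44, -2.81 and -4.61. Without untreated replicate 2 the brightest probe set was 33.7-fold lower.

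EGR3, which restrains T cell activation together with EGR2, was slightly lower and dim. Its single probe set, 206115_at, read 41.8, 71.4 and 50.0 in untreated cells and 37.3, 28.5 and 26.0 with calactin. The groups did not overlap, but the gap between them was small, with the lowest untreated array at 1.12 times the highest calactin array. The log2 difference was -0.58 ± 0.21, or 1.5-fold lower, and the probe set was not called. Within replicate numbers 1, 2 and 3 it differed by -0.12, -0.97 and -0.65, the reverse of EGR1 in that number 2 had the largest difference. Under poly-A spike scaling the EGR3 value was -0.17 ± 0.23. When only probe sets above the median signal were fitted, EGR3 was called lower.

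EGR4, a family member best known from neurons and male germ cells, showed no separation of the groups. Its brightest probe set, 207767_s_at, read 74.9, 102 and 59.2 in untreated cells and 66.0, 114 and 72.3 with calactin, a log2 difference of 0.08 ± 0.24. Replicate 2 was the highest array in both groups. The other EGR4 probe sets, 231575_at and 207768_at, lay between 3.12 and 18.3 in all 6 arrays, below every array median, while control probe sets for a bacterial trp transcript, which the usual spike mix lacks, read 1.0 to 7.74. Their differences were 0.06 ± 0.20 and -0.18 ± 0.17. Under poly-A spike scaling with the replicate block 207767_s_at was at 0.55 ± 0.18 and called higher, so its size and call rest on that fit. Without calactin replicate 2 it was at -0.13 on the deposited scale.

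NAB2, the corepressor that EGR factors induce, was lower with calactin on both probe sets. Probe set 212803_at read 481, 963 and 545 in untreated cells and 236, 233 and 232 with calactin. The calactin arrays lay within 1.02 times of each other, whereas untreated replicate 2 was 2.00 times untreated replicate 1. The lowest untreated array was 2.04 times the highest calactin array, and the log2 difference was -1.38 ± 0.23, or 2.60-fold lower. Probe set 216017_s_at read 118, 154 and 52.6 against 53.7, 28.7 and 20.8, a difference of -1.26 ± 0.36, and here the lowest untreated array fell just under the highest calactin array. With the replicate number as a block the difference of 216017_s_at stayed at -1.26 with a smaller error, ± 0.24, and it was then called, as it was not without the block.

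NAB1, the more evenly expressed of the corepressors, lay on the other side. Probe set 209272_at read 399, 580 and 463 in untreated cells and 545, 718 and 610 with calactin, a log2 difference of 0.37 ± 0.15, or 1.30-fold higher. Probe sets 211139_s_at and 208047_s_at differed by 0.35 ± 0.17 and 0.30 ± 0.18. The groups overlapped on all 3, because replicate 2 was the highest array of each group. Within replicate numbers 1, 2 and 3, however, each of the 3 was higher with calactin every time: 209272_at by 0.43, 0.30 and 0.39, 211139_s_at by 0.21, 0.34 and 0.49, and 208047_s_at by 0.33, 0.19 and 0.38. With the number as a block, 209272_at stood at 0.37 ± 0.07 and was called higher. The fourth, 239875_at, read 5.35 to 17.6 over the 6 arrays, below every array median, and differed by -0.01 ± 0.23.

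**Figure D1:**
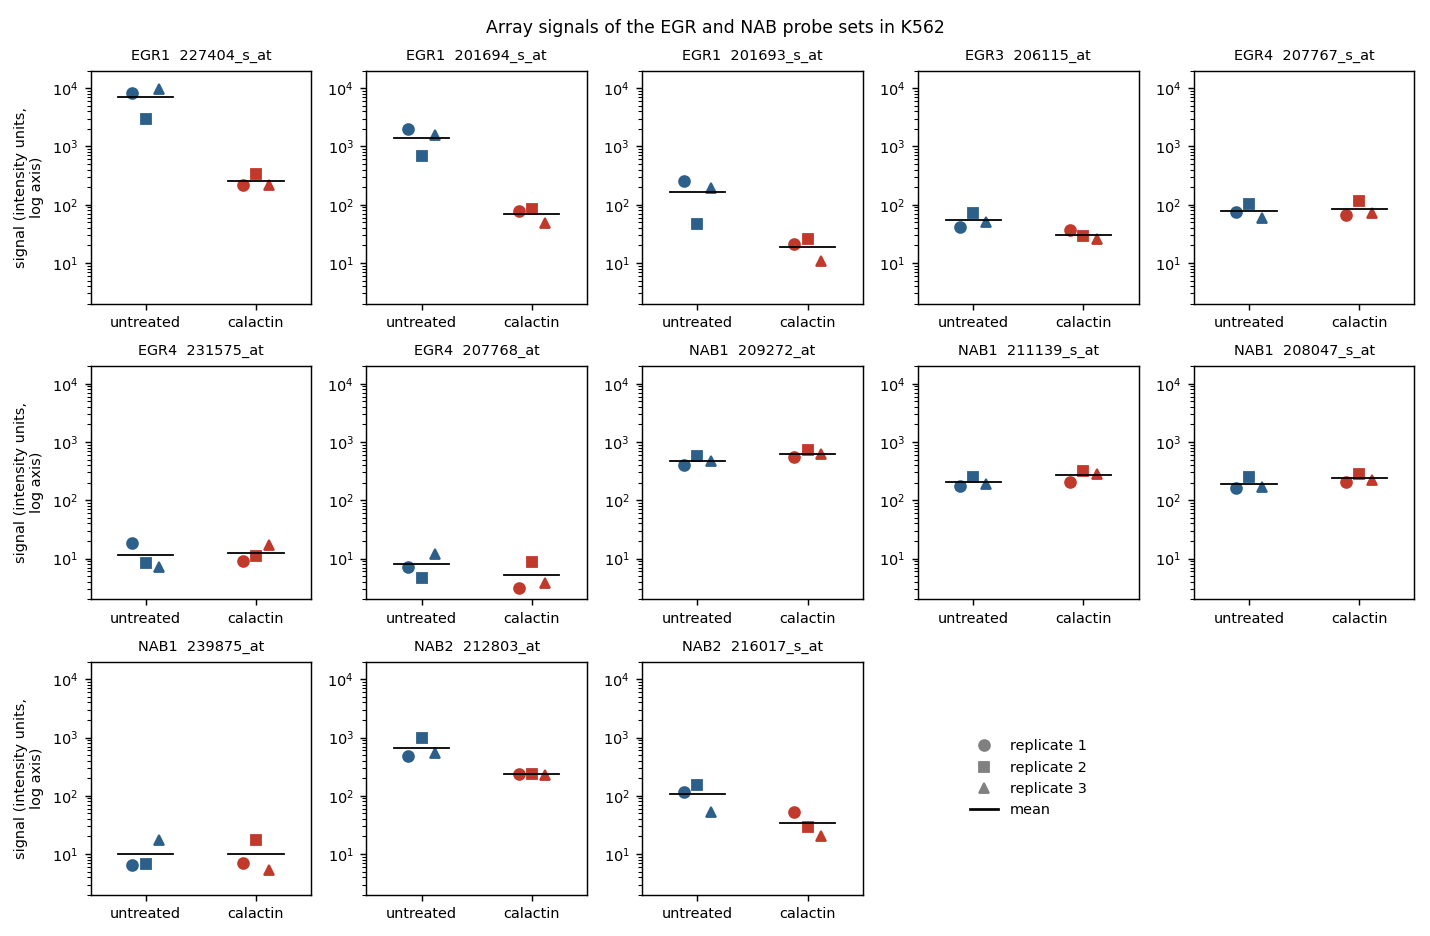
Signal of each of the 13 probe sets in the 6 arrays, in intensity units on a log axis; points are arrays, shapes mark the replicate number and bars are group means (n = 3). The EGR1 and NAB2 panels separate by group except for 216017_s_at, while the 3 brighter NAB1 panels are shifted upward with calactin and overlap, and the dim 239875_at is not shifted.

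In all, 4 of the 13 probe sets were called lower in the fit over 54613 probe sets, the 3 of EGR1 and 212803_at of NAB2, where 10.3% of all probe sets were. By limma 0 of the 13 were called higher (3.68% of all), and 1 was higher at an unadjusted p under 0.05. How many of all probe sets reached that unadjusted level was not counted. The calactin arrays lay wholly below the untreated ones for 5 of the 13, the same 4 and EGR3, as for 19.0% of all probe sets, and wholly above for 0, against 9.36%. Because the comparison itself chose the family, these counts are set out only beside their background. In replicates 1 and 2 alone, 2 were called lower, both of EGR1, where 1279 of all 54613 probe sets were.

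The order within the family did not depend on the scaling of the arrays. EGR1 had the most negative differences and NAB2 the next in each of the scalings tried, and the 3 brighter NAB1 probe sets were positive in each. Quantile normalization called 209272_at of NAB1 higher. Poly-A spike scaling with the replicate block gave -3.98 ± 0.34 for the brightest EGR1 probe set, -0.83 ± 0.14 for 212803_at of NAB2, and 0.83 to 0.93 for the 3 NAB1 probe sets, which it called higher. That fit called 13701 of all 54613 probe sets higher. The 3 brighter NAB1 probe sets gave 0.18 to 0.51 when single arrays were left out, and 212803_at of NAB2 gave -1.57 to -1.08.

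**Figure D2:**
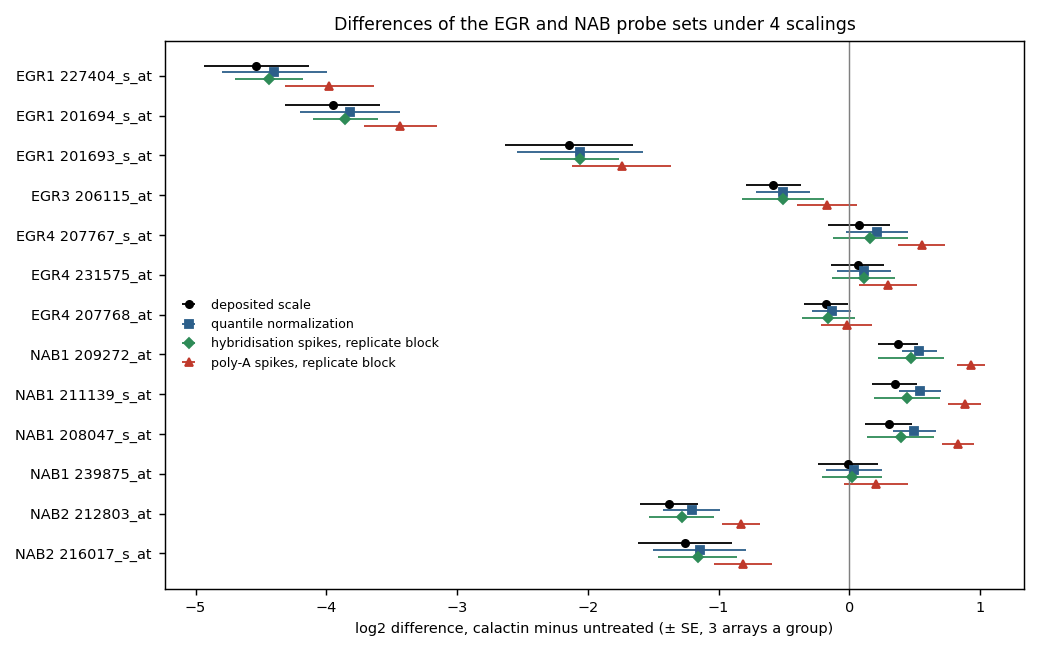
Log2 difference of calactin minus untreated for each probe set, with its standard error, on the deposited scale, after quantile normalization, and after scaling to the hybridisation or poly-A spikes with the replicate number as a block. EGR1 runs from -4.53 to -1.74 across its probe sets and these scalings, and poly-A spike scaling moves each probe set to the right.

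Among the untreated arrays, replicate 2 was the lowest for EGR1 and the highest for NAB2 and EGR3. That array had 0.417, 0.479 and 0.287 of the untreated mean on the 3 EGR1 probe sets, but 1.45 and 1.43 on those of NAB2 and 1.31 on EGR3. FOS, which pairs with JUN proteins in AP-1, was at 0.387 there, SPRY2, an inhibitor of RAS signalling, at 0.581 and FOSL1 at 0.799. PHLDA1, a target of ERK signalling, was at 1.49 and TRIB1, a pseudokinase, at 1.10. Of 31 measured immediate early genes, 19 had their lowest untreated value in that array and 8 their highest, where 37.2% and 33.0% of all 19775 genes did. With the deviations from the group means, the brightest EGR1 probe set correlated over the 6 arrays at -0.91 with 212803_at of NAB2 and at -0.80 with EGR3. These are descriptions over arrays that share 2 groups and 3 replicate numbers, without a test.

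**Figure D3:**
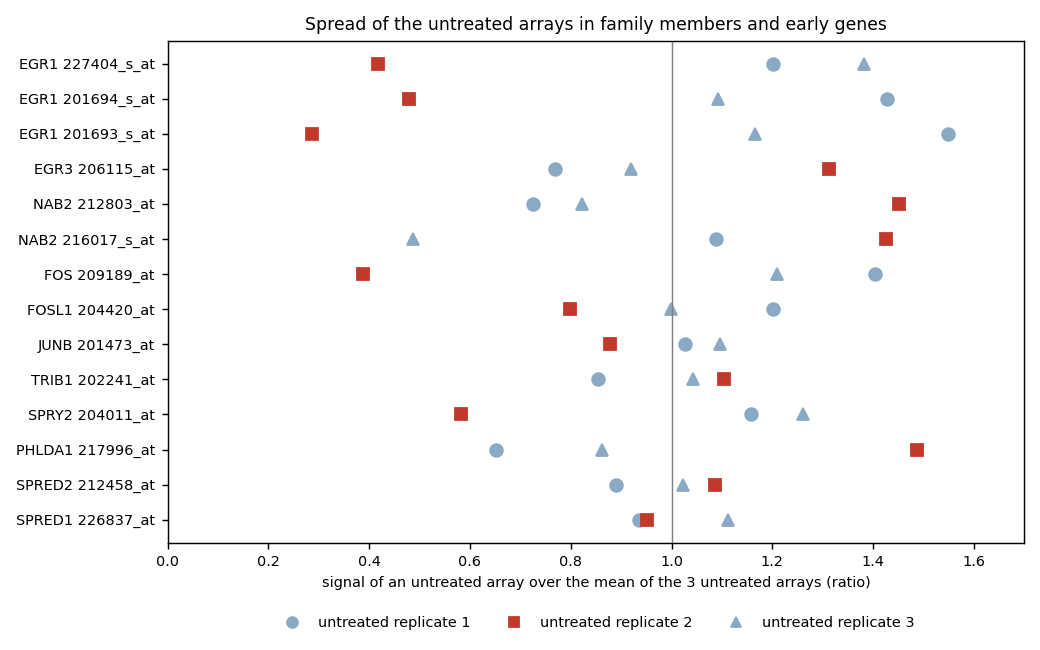
Signal of each untreated array divided by the mean of the 3 untreated arrays, for the EGR1, EGR3 and NAB2 probe sets and the named immediate early and ERK output genes. Untreated replicate 2 lies at 0.287 to 0.479 for EGR1 and at 1.31 to 1.45 for EGR3 and NAB2.

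Among 9883 other genes above the median signal, each by its brightest probe set, those whose log2 signals over the 6 arrays were most like the brightest EGR1 probe set were BRD3, a reader of acetylated histones (Pearson r 0.9995), PWWP3A (0.998), TRAPPC12, part of a vesicle tethering complex (0.998), the noncoding RBM33-DT (0.998) and ZW10, a kinetochore protein (0.997). BRD3 differed by -1.13 ± 0.13, ZW10 by -1.05 ± 0.12 and TRAPPC12 by -0.78 ± 0.11, all smaller than EGR1, and TRAPPC12 was at 0.005 when its probe sets were averaged. By the deviations from the group means, which leave the drug out, the most alike were RAB23 (0.998), BRD3 (0.992), MELK, a kinase of dividing cells (0.992), SMC5-DT (0.992) and FOXK2 (0.990). RAB23 and FOXK2 were higher with calactin, by 0.47 ± 0.11 and 0.44 ± 0.11, so these followed EGR1 within the groups and not between them; when probe sets were averaged RAB23 was at 0.15 and FOXK2 at -0.11. With 6 arrays and so many genes ranked, values this high are a description of likeness.

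Genes that carry the ERK signal to the EGR1 promoter were called in both directions on the deposited scale, and most rose under poly-A spike scaling. Of 19 measured, 2 fell and 3 rose (limma over all 19775 genes, where 16.5% fell and 4.93% rose), and their median was 0.08 against -0.06 for all genes. With poly-A scaling and the replicate block 16 rose and 1 fell, where 6998 of 19775 genes rose and 1099 fell. The median was then 0.63 against 0.32 for all genes. SRF, the factor that binds CArG boxes, read 524 to 651 with calactin and 572 to 634 without, a difference of 0.01 ± 0.11, and ELK1, its classic partner, differed by 0.11 ± 0.10; neither was called on the deposited scale, and both were called higher under poly-A spike scaling. ELK3, a ternary complex factor that represses until it is phosphorylated, read 122, 65.1 and 162 in untreated cells and 16.5, 3.97 and 12.8 with calactin. It fell by 2.25 ± 0.31 (adjusted p = 0.00103, limma), and by 0.99 when its probe sets were averaged, with -3.37 and -1.23 at pseudocounts of 1 and 64. CREB1, whose protein binds TGACG cores, rose by 1.0 ± 0.11 and SOS1, the exchange factor that loads RAS, by 0.90 ± 0.12, though SOS1 was at 0.40 and not called when its probe sets were averaged. ARAF, a RAF kinase, rose by 0.47 ± 0.14, a call that held among the 6 fits that left out an array only without untreated 1, with values of 0.32 to 0.52 in the others. RPS6KA1, which encodes the ERK-activated kinase RSK1, fell by 0.54 ± 0.14, was at 0.018 under poly-A spike scaling, and lost its call under quantile normalization and in 4 of the 6 fits that left out an array (calactin 2 and 3, untreated 1 and 3), with values of -0.53 to -0.43 in those 4.

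Several immediate early genes that share EGR1's mode of induction fell with it. This list was chosen with earlier results of these data known, so it lends the EGR1 difference no independent support. Of 31 measured, 11 fell, 1 rose and 19 were not called, where 16.5% of all genes fell and 4.93% rose, with a median of -0.37. Leaving out single arrays gave 9 to 14 falls. Under poly-A spike scaling with the replicate block 7 fell and 7 rose, where 1099 of 19775 genes fell and 6998 rose. The median was then 0.10, still under the 0.32 of all genes. FOS read 389, 107 and 336 in untreated cells and 20.6, 33.1 and 14.1 with calactin, with a log2 difference of -2.78 ± 0.42 (adjusted p = 0.00165, limma), and -3.44 and -1.87 at pseudocounts of 1 and 64. JUNB, another AP-1 subunit, read 688, 589 and 735 against 49.0, 146 and 135 and fell by 2.55 ± 0.31. FOSL1 read 476, 316 and 396 against 67.6, 59.2 and 55.8 and fell by 2.41 ± 0.17. TRIB1 fell by 2.02 ± 0.16, and by 0.73 with the mean of its probe sets. JUN at 0.23 ± 0.13 and ATF3 at 0.08 ± 0.11 were not called, although JUN was called higher with the replicate block (adjusted p = 0.0195, limma) and both were under poly-A spike scaling, and KLF6, a zinc finger factor, was the single riser, at 0.95 ± 0.13.

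ERK output genes, a set used to gauge activity of the pathway downstream of MEK, had a median below that of all genes. Of 13 measured, 4 fell and 9 were not called, where 16.5% of all genes fell. By limma 0 rose and 0 had an unadjusted p under 0.05 in that direction, whereas 7 were lower at that level. How many of all genes reached the unadjusted level was not counted, so the 7 has no background beside it. The median was -0.46, and 0.006 under poly-A spike scaling with the replicate block, where 3 rose and 3 fell. In that fit 6998 of 19775 genes rose and 1099 fell. SPRY2 read 254, 127 and 276 in untreated cells and 52.2, 26.6 and 44.3 with calactin and fell by 2.01 ± 0.29 (adjusted p = 0.00145, limma), and by 1.39 at a pseudocount of 64. SPRED2, which blocks RAF activation, fell by 0.97 ± 0.12. PHLDA1 fell by 1.13 ± 0.29, a call lost when calactin 1 or 3, or untreated 2 or 3, was left out, at -1.19 to -0.83, and when its probe sets were averaged, at -0.47. SPRED1 fell by 0.43 ± 0.12, was at 0.12 under poly-A spike scaling, and lost its call under quantile normalization and median centring and without any calactin array or untreated replicate 3, at -0.48 to -0.35. Without calactin replicate 3 or untreated replicate 3 the list had 2 falls.

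**Figure D4:**
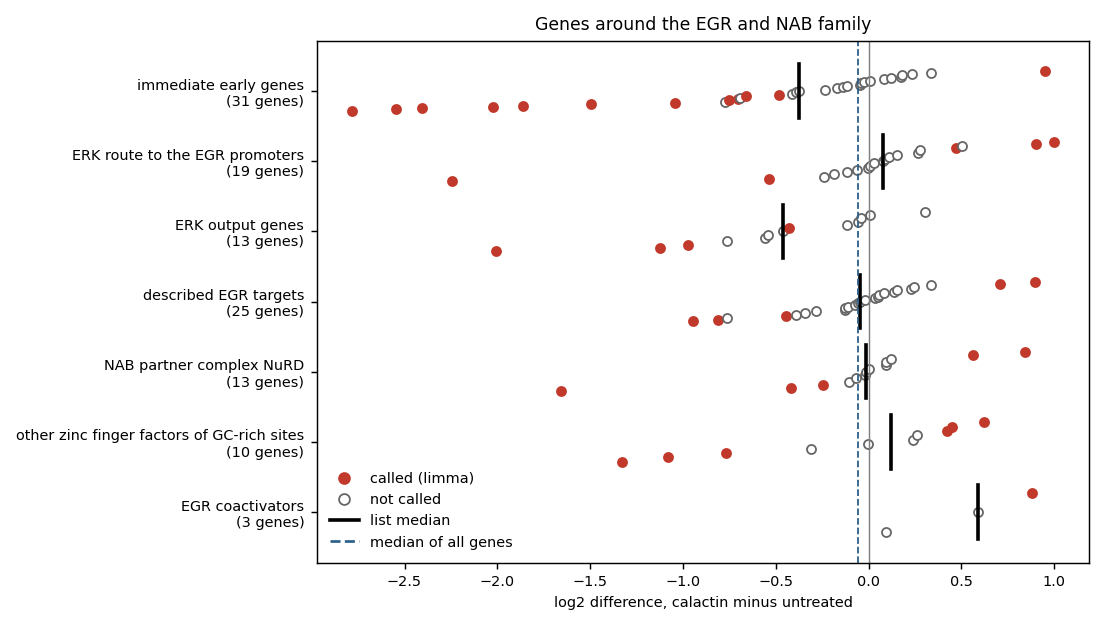
Log2 difference of calactin minus untreated for each measured gene of the 7 lists around the family; filled points were called by limma, thick bars are list medians and the dashed line is the median of all genes, -0.06. The immediate early and ERK output lists have medians of -0.37 and -0.46, and the described EGR targets a median of -0.05.

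Genes described in the literature as EGR targets were called in both directions on the deposited scale. Of 25 measured, 3 fell, 2 rose and 20 were not called, where 16.5% of all genes fell and 4.93% rose, and their median was -0.05. Under poly-A spike scaling with the replicate block 12 rose and 1 fell, where 6998 of 19775 genes rose and 1099 fell. The median was then 0.44 against 0.32 for all genes. PDGFA, a growth factor chain, read 189, 219 and 190 in untreated cells and 108, 76.4 and 106 with calactin and fell by 0.94 ± 0.16 (adjusted p = 0.00307, limma). GADD45B fell by 0.81 ± 0.19, a call lost when calactin 2 or 3, or untreated 3, was left out, at -0.79 to -0.66, and its probe set of unshared sequence gave 0.014. GADD45A fell by 0.44 ± 0.10, a call lost without calactin 3, at -0.43, and it was at 0.13 under poly-A spike scaling. GDF15, a stress-induced cytokine, rose by 0.90 ± 0.21, a call lost without calactin replicate 1 or 2, at 0.88 and 0.85. GDF15 was at 0.42 when its probe sets were averaged and at 0.036 on a probe set of unshared sequence, without a call in either. ITCH, a ubiquitin ligase, rose by 0.71 ± 0.09 on a probe set whose identifier marks shared sequence, and a probe set of unshared sequence gave -1.23, with 0.059 when its probe sets were averaged. TGFB1, at -0.12 ± 0.21, was not called, and was at 0.44 and called higher under poly-A spike scaling. Without calactin replicate 3 the list had 1 fall, and without calactin replicate 1 or 2 it had 1 rise. With the replicate number as a block 4 rose.

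Genes of the NuRD complex, through which NAB2 represses, were called in both directions on the deposited scale. Of 13, 3 fell and 2 rose, where 16.5% of all genes fell and 4.93% rose, with a median of -0.01. Blocked by replicate number, the poly-A fit gave 9 rises and 1 fall, where 6998 of 19775 genes rose and 1099 fell. The list median there was 0.55, against 0.32 for all genes. CHD4, the remodelling ATPase that NAB2 contacts, differed by 0.09 ± 0.11 and was not called on the deposited scale, but was called higher under poly-A spike scaling. MTA3 read 488, 535 and 570 in untreated cells and 135, 153 and 187 with calactin and fell by 1.66 ± 0.14 (adjusted p = 0.000124, limma), though its probe set of unshared sequence gave -0.19 and was not called. MTA1 fell by 0.42 ± 0.10, a call lost under quantile normalization and without calactin replicate 2 or 3, at -0.43 and -0.37, and it was at 0.14 under poly-A spike scaling. RBBP7, a histone chaperone, fell by 0.24 ± 0.07, was at 0.33 under poly-A spike scaling, and lost its call under median centring and without calactin 2 or 3 or untreated 1 or 3, at -0.27 to -0.19. GATAD2B, a scaffold subunit, rose by 0.84 ± 0.16, and was at 0.31 and not called when its probe sets were averaged. MBD3, a methyl-binding domain subunit, rose by 0.56 ± 0.14, a call lost when calactin 1 or 2, or untreated 2 or 3, was left out, at 0.47 to 0.55, and when its probe sets were averaged, at 0.32. The list had 1 fall without calactin replicate 2 or 3 and 1 rise when calactin 1 or 2, or untreated 2 or 3, was left out.

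Other zinc finger factors of GC-rich sites were also called in both directions. Of 10, 3 fell and 3 rose, where 16.5% of all genes fell and 4.93% rose, with a median of 0.12. Poly-A scaling with the replicate block gave 6 rises and 2 falls, where 6998 of 19775 genes rose and 1099 fell. The median was then 0.68. WT1, whose fingers bind sites close to those of EGR1, read 1186, 982 and 1405 in untreated cells and 442, 404 and 542 with calactin and fell by 1.33 ± 0.15 (adjusted p = 0.000443, limma). KLF13 fell by 1.08 ± 0.14, but its probe set of unshared sequence gave -0.12 and was not called, and averaging its probe sets gave -0.43. KLF16 fell by 0.77 ± 0.15, a call lost under hybridisation and poly-A spike scaling. SP2, SP3 and SP4 rose by 0.62 ± 0.11, 0.45 ± 0.08 and 0.42 ± 0.13. When probe sets of a gene were averaged they were at 0.10, 0.25 and 0.28, and 0 of this list rose by limma. The SP4 call held among the 6 fits that left out an array only without untreated 2. Among 3 coactivators of EGR factors, CREBBP, an acetyltransferase, rose by 0.88 ± 0.12 and its relative EP300 was at 0.59 ± 0.20 without a call. With the replicate block EP300 was called (adjusted p = 0.0354, limma), and without untreated replicate 2 the list also had 2 rises. All 3 rose after poly-A spike scaling. By limma 0 fell, and 0 were lower at an unadjusted p under 0.05, a level at which all genes were not counted.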

How the data were processed

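RNA from 3 calactin and 3 untreated K562 samples was labelled by the Affymetrix protocol from 8 ug of total RNA, per the labels' protocols. The authors deposited an intensity on a linear scale for each probe set in each array; how the authors summarised and scaled them is not given in the sources used here. Of 54675 probe sets, 62 were array controls, 41091 had 1 gene symbol, 1801 several and 11721 none in the platform annotation; 41037 matched a current gene by identifier.

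Intensities were turned into log2(intensity + 16), so folds of dim probe sets are understated. The groups were compared, two-sided, with lmFit and eBayes (variance trend) of limma 3.58.1, run under R 4.3.3, over all 54613 probe sets that are no controls for the members, and for gene lists over 19775 genes, each by its probe set with the highest mean; adjusted p is Benjamini-Hochberg with a threshold of 0.05. The procedure was tested on simulated data. Members and lists were chosen with earlier results of these data known. Named genes were all members, up to 4 called genes of largest difference per list, FOS, FOSL1, SRF, ELK1, WT1, CHD4, TGFB1, 1 further gene that was not analysed here, and the 5 most like EGR1 by each of 2 measures; JUN, ATF3, KLF6, ARAF, GADD45A, RBBP7, SP3, SP4, EP300, HBE1, HBZ, CD3D, ITGA2B and ITGB3 were named after their values were seen. Lists had 32 immediate early, 24 ERK route, 13 ERK output, 32 target, 13 NuRD, 10 zinc finger and 3 coactivator genes; those without a probe set of their symbol alone were not analysed here.

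Replicate numbers come from the sample titles. Over 9887 genes the deviations of the arrays of a number correlated at 0.544, 0.409 and 0.345, each above 0.1. A pairing by number thus rests on the data and not on the design. The main fit had no replicate block, so its calls, errors and adjusted p ignore that pairing. The block was used as an alternative. Alternatives were quantile normalization, median centring, spike scalings, pseudocounts of 1 and 64, a filter on dim features, 2 other eBayes settings, the replicate block, other probe set rules, and arrays left out. Scaling with the replicate block was done within each number. Plots used matplotlib 3.10.9.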

Additional observations from a re-analysis of the deposited data

Results flagged for a closer look

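The control probe set for the middle of 28S ribosomal RNA, which enters no comparison, was higher with calactin than in untreated arrays. It read 10036, 13172 and 7119 with calactin and 616, 1051 and 529 without, so that the mean was 13.8 times as high. The 5′ probe set of the same RNA was 2.46 times as high, and the 3′ one 0.897 times. The ratio of 3′ to 5′ ACTB control signal was 1.17 to 1.41 with calactin and 1.23 to 1.49 without. The part of this signal in the EGR and NAB differences was not tested.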

How the results depend on the processing

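The brightest EGR1 probe set kept its direction in 19 of 19 alternatives, from -5.08 to -3.95, and -5.08 to -4.21 with single arrays left out; 212803_at of NAB2 ran from -1.57 to -0.81 and 209272_at of NAB1 from 0.25 to 0.93. Array number and dim signal limit EGR3, EGR4 and 239875_at. The causes of the changes below were not tested, unless fewer arrays or features explain them.

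With single arrays left out, 3 to 4 member probe sets were called lower and 0 higher; all probe sets called lower numbered 3640 to 4832 and higher 1222 to 1949, and genes 2390 to 3030 and 644 to 1015. Probe sets called lower were 3640 without untreated 3, those called higher 1222, 1227 and 1307 without calactin 2, calactin 3 and untreated 3, and genes called higher 648 and 644 without calactin 2 and 3. Ranges of falls were 9 to 14 for immediate early genes, 1 to 2 for the ERK route, 2 to 4 for ERK output, 1 to 3 for EGR targets, 1 to 3 for NuRD, 0 to 1 for megakaryocytic markers and 2 to 2 for erythroid ones. Ranges of rises were 1 to 2 for targets and for NuRD, 2 to 3 for the ERK route and the zinc finger factors, and 1 to 2 for coactivators.

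Quantile normalization called 1 member higher, 3379 probe sets and 1657 genes higher, 1 ERK route fall and 5 rises, 4 target, 5 zinc finger and 2 coactivator rises, and 0 megakaryocytic falls. Median centring gave 2 coactivator rises. Hybridisation spike scaling called 2307 probe sets lower and 1123 higher, 1477 genes lower and 590 higher, 7 immediate early falls, 1 fall each for the ERK route, targets, NuRD and erythroid markers, 1 zinc finger rise and 2 coactivator rises; with the replicate block, 2162 and 1053 probe sets, 1207 and 422 genes, 7 immediate early falls, 1 fall in each of those 4 lists, 0 zinc finger rises and 1 NuRD rise. Poly-A spike scaling with the replicate block called 1817 probe sets lower and 13701 higher, 1099 genes lower and 6998 higher, 4 members higher, 7 immediate early falls and 7 rises, 16 ERK route, 3 ERK output, 12 target, 9 NuRD, 6 zinc finger, 3 coactivator, 4 megakaryocytic and 9 erythroid rises, 1 fall each for the ERK route, targets and NuRD and 0 erythroid falls; it gave TGFB1 0.44, RPS6KA1 0.018, SPRED1 0.12, MTA1 0.14, NFE2 0.069 and TFRC 0.019. Without the pairing, where replicate 3 holds far less spike, it called 0 probe sets and 0 genes by limma, so 0 in each list, and gave RPS6KA1 0.0096, SPRED1 0.11, MTA1 0.14, NFE2 0.066 and TFRC 0.018.

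With the replicate block alone, 1 member, 3 immediate early, 4 target, 2 coactivator and 3 erythroid genes rose and 2 megakaryocytic genes fell; the block moved no other count by over 1.5 times. Features above the median alone gave 1 ERK route and 3 megakaryocytic falls and 2 coactivator rises; eBayes without a trend 0 megakaryocytic falls; robust estimation 2 megakaryocytic falls and 2 coactivator rises. Replicates 1 and 2 alone called 1279 probe sets lower and 340 higher, 1403 genes lower and 332 higher, 2 members lower, 7 immediate early falls, 1 fall each for the ERK route, ERK output and NuRD, 0 target and megakaryocytic falls, 1 target rise and 0 NuRD and zinc finger rises. Averaging the probe sets of each gene gave 0 target, NuRD and zinc finger rises and 2 coactivator rises. Probe sets of unshared sequence first gave 0 target and erythroid rises and 4 NuRD rises, with GADD45B at 0.014, ITCH at -1.23 and TAL1 at -0.030.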

Other observations

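Lineage genes of K562 moved differently on the 2 scales. Of 11 erythroid marker genes measured, 2 fell and 1 rose on the deposited scale, where 16.5% of all genes fell and 4.93% rose. Their median was 0.11 against -0.06 for all genes. After poly-A spike scaling, blocked by replicate, 9 rose and the other 2 were not called, where 6998 of 19775 genes rose and 1099 fell. The median was then 0.68 against 0.32. GATA1, the master factor of red cells and megakaryocytes, read 1820, 1634 and 1207 in untreated cells and 794, 1028 and 712 with calactin and fell by 0.86 ± 0.17 (adjusted p = 0.00752, limma), a call lost under poly-A spike scaling. TFRC, the transferrin receptor, fell by 0.55 ± 0.06, and was at 0.019 under poly-A spike scaling. TAL1, a partner of GATA1, rose by 0.92 ± 0.10, but a probe set of unshared sequence gave -0.030. HBE1 and HBZ, at -0.04 and -0.01, were not called, and were at 0.53 and 0.56 and called higher under poly-A spike scaling.

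Of 13 megakaryocytic marker genes, 1 fell and by limma 0 rose, where 16.5% of all genes fell and 4.93% rose. At an unadjusted p under 0.05, 0 were higher and 3 lower, a level at which all genes were not counted. Of the 13, 5 lay above the median gene signal. On the poly-A scale with the replicate block 4 rose and 1 fell, where 6998 of 19775 genes rose and 1099 fell. NFE2, a factor for platelet genes, read 2941, 2405 and 2540 in untreated cells and 1660, 2321 and 1635 with calactin and fell by 0.50 ± 0.14. Its call did not hold when calactin 1 or 3, or untreated 1 or 3, was left out, at -0.52 to -0.41, nor under quantile normalization, and NFE2 was at 0.069 under poly-A spike scaling. The summed megakaryocytic signal was 2520 to 3382 with calactin and 3716 to 4272 without. ITGA2B and ITGB3, the platelet integrin chains, were at -0.17 and -0.06 and not called.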
